A study of Homo sapiens with 12 samples.

Results

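The 10 genes described here lie beside each other on chromosome 17, in bands q12 to q21, where a stretch of DNA carrying ERBB2 is copied many times in HER2-positive breast cancers. They were taken from a list of named genes of this amplicon (ERBB2, GRB7, STARD3, PGAP3, MIEN1, CDK12, MED1, RPL19, PSMD3 and ORMDL3) and make up 10 of the 62696 genes counted. The list sets no threshold on their values, but it was drawn up with earlier results of these data known. RNA-seq was made on SKBR3 and MDA-MB-453 (labelled MB453), breast cancer cell lines that the study used as HER2 lines, each untreated (UT) and treated with TWEAK. Treated cells passed through 8 h of starvation in Opti-MEM and were then kept with TWEAK at 10 ng/ml for 48 h, renewed at 24 h. The labels carry this 1 protocol on every sample and do not say separately how untreated cells were kept. Each of the 4 groups held 3 replicates, described by the study as biological. Each line stands for a single cell population, so the groups describe these lines and not breast cancers in general.

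ERBB2 encodes HER2, a receptor tyrosine kinase without a known ligand of its own that signals by pairing with other receptors of its family. The genes copied along with it range from GRB7, an adaptor that binds the activated receptor, to genes with no direct tie to HER2, such as RPL19, a protein of the large ribosomal subunit. TWEAK is a cytokine of the TNF family that binds the receptor Fn14, encoded by TNFRSF12A, and activates NF-κB. The comparisons asked how far the level of each amplicon gene differed between the untreated lines, and whether TWEAK changed it in either line.

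All 12 libraries held between 24773003 and 35208304 counts, and every member was counted at least 1019 times in each library. DNA copy number was not measured. The lines were counted in separate tables of raw counts, so a difference between the lines cannot be told apart from a difference in how their libraries were prepared. As in any bulk sample, fewer cells of a type and less RNA per cell cannot be told apart. Of 10 epithelial and luminal breast markers, 9 were counted more than 3 times in every SKBR3 library and all 10 in every MB453 library. CDH1, the epithelial cadherin, was the marker close to absent in SKBR3 (0.162 CPM in the untreated group, where CPM are counts scaled to a common library size with TMM factors, against 47.6 CPM in MB453). Leukocyte markers summed to 1.78 CPM or less and endothelial markers to 7.80 CPM or less in every library. Fibroblast markers summed to between 17.6 and 20.98 CPM in SKBR3 and between 107 and 122.7 CPM in MB453, and COL1A1 was the highest of them in each group. Of 6 genes known to respond to TWEAK, 6 were called higher with it in SKBR3 and 5 in MB453, BIRC3 with a log2 fold change of 3.42 and 3.57.

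The second replicate of the TWEAK group stood apart from the other 2 in SKBR3, and less clearly in MB453. The chi-square per degree of freedom between its counts and those of the other TWEAK replicates was 21.1 and 23.8 in SKBR3 and 10.2 and 5.31 in MB453, while the remaining pairs of replicates lay between 1.78 and 5.74, a range that includes the lower of the MB453 values. The changes of the members with TWEAK are therefore given with and without it, and those of other genes with all replicates.

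The members span from RPL19, whose start lies 488 kb before that of ERBB2, to PSMD3, 293 kb after it (hg38, with gene models of GENCODE release 44). ERBB2 occupies chr17:39687914-39730426 on the plus strand. Some of the genes share sequence at their ends. The end of MIEN1, on the minus strand, overlaps that of ERBB2, and the 571 exonic bases they share make up 28.0% of the exonic bases of MIEN1 and 5.53% of those of ERBB2. PGAP3 shares 144 exonic bases with ERBB2 on the opposite strand, 3.98% of its own. MED1 shares 8.76% of its exonic bases with a lncRNA (ENSG00000266469) on the opposite strand. The study's methods name a directional RNA library kit, while the sample labels name a kit for DNA libraries. The strand setting of the counting is not given in the sources used here. Reads from these overlaps may thus have been counted on either gene or left out. RPL19 has 13 annotated pseudogenes, which together held between 0.136% and 0.149% as many counts as RPL19 itself in each group.

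The promoters are shown because some of the annotated starts lie close together. Windows of 250 bases before to 50 bases after the start were taken from RefSeq (GRCh38.p14) and matched 9 of the 10 members, GRB7 being the exception. The ERBB2 and PGAP3 windows overlap by 136 bases, with start sites 37 bases apart that face away from each other. This holds for the RefSeq starts only, since the GENCODE models used elsewhere here put the start of PGAP3 8.88 kb downstream of that of ERBB2, within the ERBB2 gene. The canonical ERBB2 transcript of GENCODE starts 11970 bases downstream of the RefSeq start, and the 250 bases before that start were read from hg38. The sequences shown are the ERBB2 and PGAP3 windows and those of the other members that hold the letters CCAAT. They are written 5′ to 3′, with CCAAT and TATAA, on either strand, in capitals.
ERBB2, canonical start, chr17:39699814-39700063, plus strand: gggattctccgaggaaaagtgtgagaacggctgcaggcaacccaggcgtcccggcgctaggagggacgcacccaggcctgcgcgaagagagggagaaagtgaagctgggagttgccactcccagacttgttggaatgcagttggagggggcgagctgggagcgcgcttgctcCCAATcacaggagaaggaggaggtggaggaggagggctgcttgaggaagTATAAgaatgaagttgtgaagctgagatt
ERBB2, chr17:39687844-39688143, plus strand: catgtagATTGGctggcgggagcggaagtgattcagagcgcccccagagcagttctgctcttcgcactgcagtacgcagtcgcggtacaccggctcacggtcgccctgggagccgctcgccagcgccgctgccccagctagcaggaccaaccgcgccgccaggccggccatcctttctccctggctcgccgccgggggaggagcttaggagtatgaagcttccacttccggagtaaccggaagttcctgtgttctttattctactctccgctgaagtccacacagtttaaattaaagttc
PGAP3, chr17:39688008-39688307, minus strand: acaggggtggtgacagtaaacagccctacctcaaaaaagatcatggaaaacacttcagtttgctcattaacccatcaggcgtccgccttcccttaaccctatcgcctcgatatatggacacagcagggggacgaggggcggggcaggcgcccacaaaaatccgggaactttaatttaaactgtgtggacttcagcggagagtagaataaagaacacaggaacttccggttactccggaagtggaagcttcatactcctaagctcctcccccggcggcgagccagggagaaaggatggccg
MED1, chr17:39451214-39451513, minus strand: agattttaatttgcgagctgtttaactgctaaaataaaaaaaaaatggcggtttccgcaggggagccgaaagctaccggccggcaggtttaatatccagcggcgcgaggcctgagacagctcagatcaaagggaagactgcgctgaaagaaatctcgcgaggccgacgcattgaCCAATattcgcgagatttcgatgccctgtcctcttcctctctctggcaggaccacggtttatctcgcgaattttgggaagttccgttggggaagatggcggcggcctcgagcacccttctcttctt
RPL19, chr17:39200033-39200332, plus strand: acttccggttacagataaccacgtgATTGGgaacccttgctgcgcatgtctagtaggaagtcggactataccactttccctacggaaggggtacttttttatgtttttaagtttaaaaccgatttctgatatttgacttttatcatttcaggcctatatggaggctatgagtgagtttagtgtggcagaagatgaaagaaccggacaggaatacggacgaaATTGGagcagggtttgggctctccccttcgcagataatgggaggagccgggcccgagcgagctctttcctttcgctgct
PSMD3, chr17:39980557-39980856, plus strand: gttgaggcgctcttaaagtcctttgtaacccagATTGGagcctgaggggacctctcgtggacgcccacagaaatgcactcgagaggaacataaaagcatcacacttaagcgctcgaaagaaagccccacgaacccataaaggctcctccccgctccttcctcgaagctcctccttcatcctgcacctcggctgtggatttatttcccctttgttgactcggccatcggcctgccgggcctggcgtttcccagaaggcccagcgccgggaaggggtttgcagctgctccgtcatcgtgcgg

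CCAAT was found in 4 of the 9 windows (ERBB2, MED1, RPL19 and PSMD3) and in 35.7% of the 27305 promoter windows of RefSeq. TATAA was found in 0 of the 9 and in 21.1% of all windows. Before the canonical ERBB2 start both were present, with CCAAT beginning 78 bases and TATAA 29 bases before it, and 33.0% and 19.6% of all genes hold them in the 250 bases before their start. The AP-2 letters GCCNNNGGC, read the same on both strands, occurred in the STARD3 and PSMD3 windows and in 23.0% of all windows. A κB motif on either strand occurred in the windows of STARD3, CDK12 and MED1, in 10.8% of all windows, and 250 bases before the canonical ERBB2 start. These matches describe letters in the windows and not binding.

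In the untreated cells every amplicon gene was higher in SKBR3 than in MB453, by between 2.44-fold for PSMD3 and 18.3-fold for RPL19. The median of the 10 log2 fold changes was 2.69, against 0.028 over all 16315 genes tested. All 10 were called higher at an adjusted p of at most 0.1 with edgeR's quasi-likelihood test. The lines differed at most genes, with 44.8% of all genes called higher and 42.4% called lower in SKBR3, and the groups did not overlap for 10 of 10 members and for 85.3% of all genes, so it is the size and shared direction of the differences rather than their call that describe these genes. Each of them ranked among the 19.7% of genes with the largest log2 fold change, and RPL19 among the 7.78%.

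ERBB2 was counted at 7401, 7412 and 7899.5 CPM in the 3 untreated SKBR3 replicates and at 901, 896 and 871 CPM in untreated MB453. The groups were far apart, with a log2 fold change of 3.09 (SE 0.041, adjusted p = 1.34e-28), or 8.54-fold. ERBB2 alone took between 0.712% and 0.761% of all counts of an SKBR3 library and ranked 4 or 5 among all genes by counts, whereas in MB453 it took between 0.0882% and 0.0946% and ranked between 77 and 89. The 10 members together took between 2.26% and 2.46% of the SKBR3 libraries and between 0.256% and 0.266% of the MB453 libraries.

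GRB7, the adaptor that docks on phosphorylated HER2 through its SH2 domain, was measured at 535, 549 and 584 CPM in untreated SKBR3 and at 66.7, 64.5 and 65.2 CPM in MB453. Its 8.53-fold difference had a log2 value of 3.09 (SE 0.044), close to that of ERBB2. MIEN1, a small membrane-associated protein linked to cell migration, lies on the opposite strand at the end of ERBB2, mostly within its span. It was at 289, 305 and 325 CPM in SKBR3 and 63.9, 59.0 and 65.5 CPM in MB453, a difference of 4.90-fold. PGAP3, which remodels the lipid of GPI anchors, was at 185, 188 and 201 CPM in SKBR3 and 41.8, 39.2 and 38.4 CPM in MB453, or 4.82-fold. STARD3 moves cholesterol at the contacts of late endosomes with the endoplasmic reticulum. Its level was 583, 579 and 620.3 CPM in SKBR3 and 128, 129.9 and 129.9 CPM in MB453, or 4.61-fold. PGAP3, MIEN1 and STARD3 thus differed by between 4.61-fold and 4.90-fold, less than ERBB2 and GRB7 although they lie beside them, and the 95% intervals of their log2 fold changes (the lowest bound 2.12, the highest 2.39) did not reach those of ERBB2 and GRB7, which began above 3.

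RPL19 and CDK12, on the centromere side, showed the largest differences of the 10, and the interval of MED1 beside them overlapped that of ERBB2. CDK12, the kinase that phosphorylates RNA polymerase II together with cyclin K, was at 2001, 1919 and 1771 CPM in SKBR3 and 121, 127 and 129.6 CPM in MB453, which gave a log2 fold change of 3.92 (SE 0.047, adjusted p = 1.93e-29). MED1, the Mediator subunit that contacts nuclear receptors, was at 1118, 1084 and 995 CPM in SKBR3 and 117, 126 and 123.1 CPM in MB453, which gave a log2 fold change of 3.13 (SE 0.046, adjusted p = 8.69e-28). RPL19 was at 9979, 10487 and 11128 CPM in SKBR3 and 607, 545 and 581 CPM in MB453, which gave a log2 fold change of 4.19 (SE 0.050, adjusted p = 1.52e-29). It was the most abundant member per library in SKBR3, while in MB453 ERBB2 was. ORMDL3 and PSMD3, the members farthest on the telomere side, showed the smallest differences of the 10. ORMDL3, an inhibitor of the enzyme that begins sphingolipid synthesis, was at 249.9, 256 and 259.6 CPM in SKBR3 and 84.5, 86.7 and 87.2 CPM in MB453, or 2.97-fold. PSMD3, a subunit of the 19S cap of the proteasome, was at 949, 942 and 994 CPM in SKBR3 and 401, 389 and 396 CPM in MB453, or 2.44-fold. The intervals of ORMDL3 (1.49 to 1.65) and PSMD3 (1.21 to 1.37) lay below those of all other members.

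**Figure D1:**
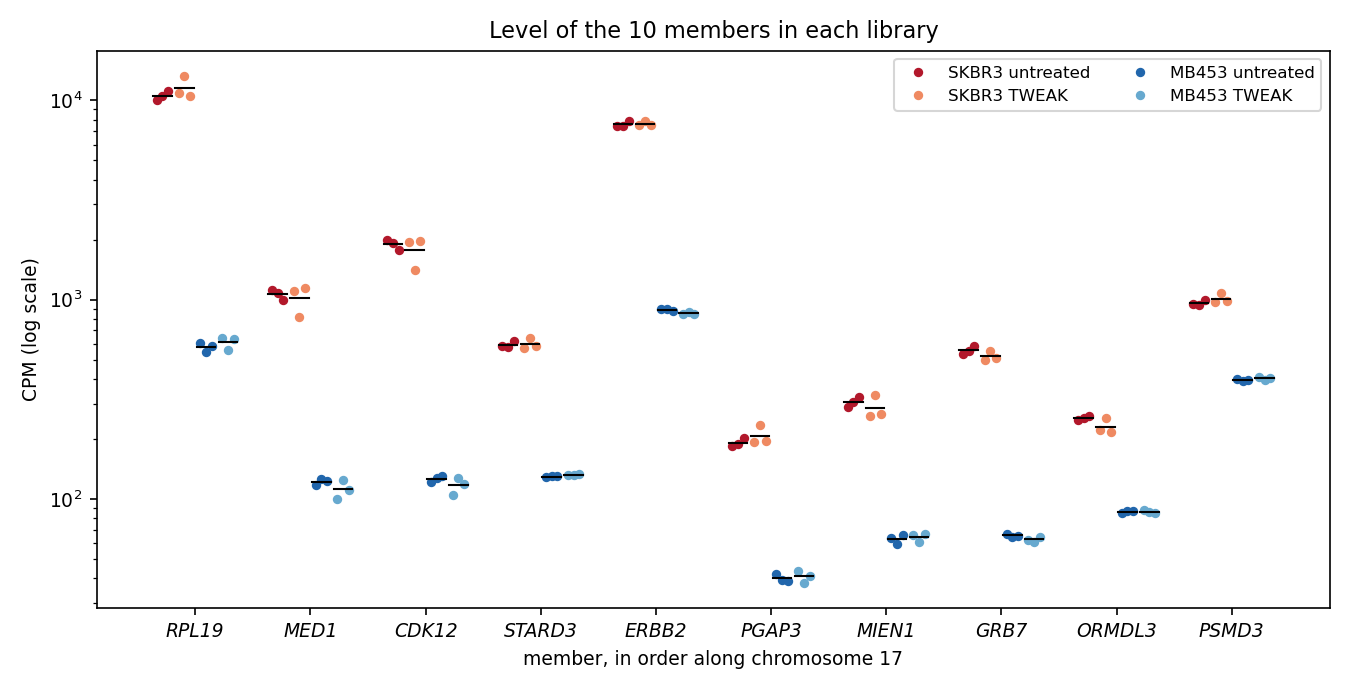
Level of the 10 members in each library, in CPM on a log axis, in order along chromosome 17. Each point is 1 replicate and each black line the mean of a group of 3. The SKBR3 points lie above the MB453 points for every gene, and the untreated and TWEAK points of a line lie close together.

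Levels of different genes were compared per length, as RPKM on the union of exons. This union takes in every annotated exon (3591 bases for RPL19 and 12975 for CDK12) and can exceed the transcript that is expressed. The order of different genes per length therefore depends on the annotation as well as on their levels. RPL19 was first in every group, at 2933 ± 160.3 RPKM in untreated SKBR3 and 161 ± 8.68 RPKM in untreated MB453 (mean ± SD, n = 3), followed by ERBB2 at 734 ± 27.6 and 86.2 ± 1.56 RPKM and PSMD3 at 194 ± 5.63 and 79.8 ± 1.24 RPKM. The mean of ERBB2 was 3.78 times that of PSMD3 in untreated SKBR3 but 1.08 times in untreated MB453, and in MB453 with TWEAK the replicates of ERBB2 and PSMD3 overlapped. Below them, untreated SKBR3 had the order GRB7, MIEN1, CDK12, MED1, STARD3, ORMDL3 and PGAP3, in which GRB7 and MIEN1, and MIEN1 and CDK12, overlapped between neighbours. In untreated MB453 the order was MIEN1, ORMDL3, STARD3, GRB7, MED1, PGAP3 and CDK12, with no overlap between neighbours. CDK12 was thus last in MB453, at 9.69 ± 0.350 RPKM, and ranked 6 of the 10 members in SKBR3, at 146 ± 8.99 RPKM.

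The neighbours of the members were used to see where the higher levels began and ended. Within 0.5 Mb of the start of ERBB2, all 27 genes tested were called higher in SKBR3, 17 of them outside the list, and the median log2 fold change of these 17 was 4.03. Among these 17, STAC2, PPP1R1B and IKZF3 were at 0.024, 0.024 and 0.012 CPM in untreated MB453. Such genes passed the count filter only through SKBR3, so their calls and the median of the 17 depend partly on the filter. In the next band, up to 1 Mb, 11 of 24 were called higher and 10 lower. Over the whole of chromosome 17, 532 of 987 genes tested were called higher and 353 lower, with a median log2 fold change of 0.33. Among coding genes with at least 10 CPM in 1 of the untreated groups, an unbroken run of 23 genes called higher extended from CACNB1, 0.490 Mb before ERBB2, to TOP2A, 0.730 Mb after it, and held all 10 members. This rule for a run, with its cut of 10 CPM, was chosen after the values were seen, and genes under the cut were left out of the runs. The run ended on the centromere side before LASP1, 0.818 Mb before ERBB2, which was lower in SKBR3 (log2 fold change -0.71). So were 14 successive genes above the cut, from AATF to CWC25 (median -1.19). RPL23, between CWC25 and LASP1, was not called (-0.058, adjusted p = 0.162). On the telomere side, IGFBP4 was the 1 gene above the cut that broke the run. It is a binding protein of insulin-like growth factors, at a mean of 0.985 CPM in SKBR3 and 11.7 CPM in MB453 (log2 fold change -3.56). A second run of 20 genes called higher reached from TNS4 to STAT3, 2.70 Mb after ERBB2, with a median log2 fold change of 2.27. Under the cut, 2 coding genes in this stretch were lower in SKBR3, KRT32 (-2.02) and DHX58 (-1.32, at 3.32 CPM against 8.24 CPM in MB453). Others there, such as STAT5A (5.75), were higher. The next gene above the cut, ATP6V0A1, was lower (-0.35), and those above the cut that followed to 3 Mb lay between -0.72 and 0.53. Under the cut, CAVIN1, between STAT3 and ATP6V0A1, was at 8.13 (8.19 CPM in SKBR3 and 0.025 CPM in MB453). HSD17B1, beyond ATP6V0A1 and also under the cut, was at 2.63.

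**Figure D2:**
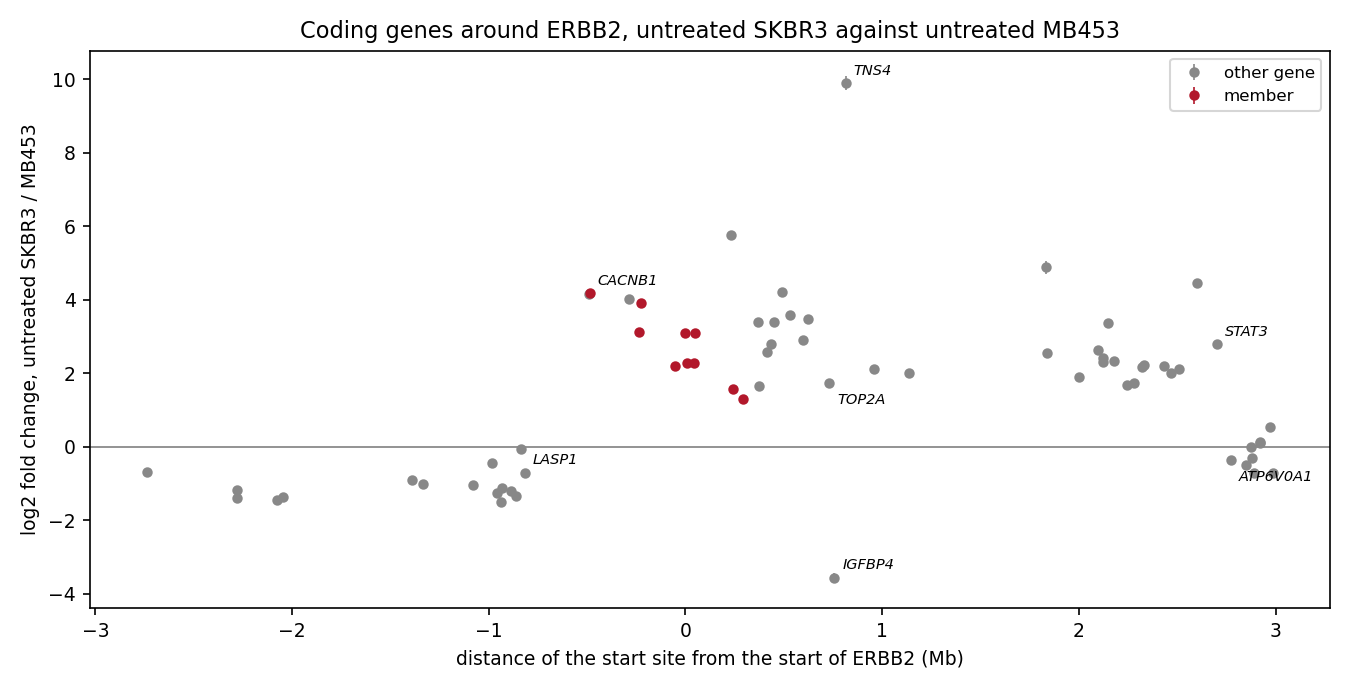
Log2 fold change of untreated SKBR3 over untreated MB453 (vertical axis) against the distance of each coding gene's start from that of ERBB2 in Mb (horizontal axis), for genes with at least 10 CPM in 1 of the untreated groups. Points are fitted values and bars their SE, which is often smaller than the point. The 10 members (red) lie between 1.29 and 4.19, LASP1 and the genes before it lie at or below 0, and IGFBP4 lies at -3.56.

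Of a list of 79 other genes of 17q12-q21, 58 were tested, of which 41 were called higher in SKBR3, 16 lower and 1 not, with a median log2 fold change of 2.18. The largest log2 fold changes among those with a mean of at least 1 CPM were 9.90 for TNS4, a focal adhesion protein, 8.33 for PPP1R1B, 7.77 for STAC2, 7.47 for IKZF3 and 5.76 for GSDMB. The lowest was LHX1, which had 0 counts in every SKBR3 library and 9.72 CPM in untreated MB453. It was followed by IGFBP4 at -3.56, by PCGF2 at 0.353 times its MB453 level (18.9 against 53.9 CPM), by DDX52 at -1.36 and by CWC25 at -1.35. TNS4, PPP1R1B, STAC2 and IKZF3 were at or below 0.037 CPM in untreated MB453, so their fitted values depend on the prior count. TOP2A, the topoisomerase often copied with ERBB2, had a log2 fold change of 1.74.

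The members were then set beside the genes they work with, most of which lie on other chromosomes. RPL19 had the largest difference of 47 proteins of the large ribosomal subunit tested. The other 46 had a median log2 fold change of 0.49, between -1.33 for RPL10 and 2.35 for RPL7. Per length, RPL19 ranked first of the 47 in SKBR3, at 17.6 times the median of the others in the untreated group, and 19 of 47 in MB453, at 1.30 times. Ranks per length in these lists carry the limit of annotated exon length given above. MED1 had the largest difference of 33 Mediator subunits, and the median of the other 32 was -0.020, between -1.88 for MED13 and 1.66 for MED24, itself 0.373 Mb from ERBB2. It ranked first of the 33 per length in untreated SKBR3, at 18.1 times the median of the others, and 6 of 33 in untreated MB453, at 2.13 times. CDK12 had the largest difference of 9 transcription kinases and their cyclins. The median of the other 8 was -0.32. Its paralogue CDK13 had a log2 fold change of 1.69 and its partner cyclin K (CCNK), the lowest of the list, -2.37.

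PSMD3 ranked 3 of 19 subunits of the 19S cap by its difference, and SEM1 was the largest at 2.16. The other 18 had a median of -0.14 with the smallest value at PSMC6 (-1.25). Per length it ranked 1 of 19 in SKBR3 and 4 of 19 in MB453. ORMDL3 had the largest difference of 8 genes of serine palmitoyltransferase and its regulators. The median of the other 7 was -0.13, with SPTLC1, a subunit of the enzyme, at 1.44 and the relatives ORMDL1 and ORMDL2 at -0.13 and -0.58. PGAP3 had the largest difference of 8 GPI anchor genes tested, followed by PGAP1 at 2.02, and MBOAT7 was the lowest at -1.32. PGAP2 and PGAP6 had values of -0.017 and -0.26. STARD3 was the largest of 11 relatives and contact partners, just above STARD4, another cholesterol carrier, at 2.02, and NPC2 was the lowest at -1.35. The relatives of GRB7 had the opposite direction, with GRB10 at -1.09 and GRB14 at -0.52, both called lower.

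**Figure D3:**
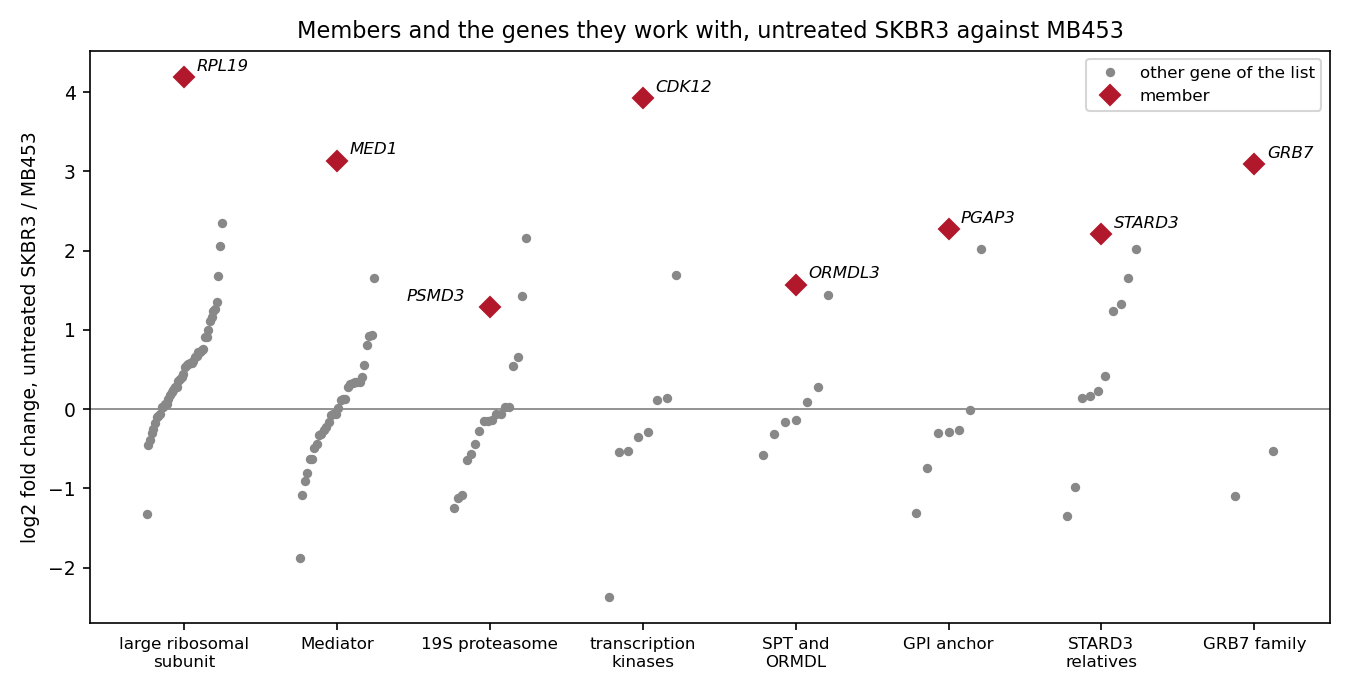
Log2 fold change of untreated SKBR3 over untreated MB453 for 8 members (red diamonds) and the other genes of the list each works with (grey points, ordered by value within a list). RPL19, MED1, CDK12, ORMDL3, PGAP3, STARD3 and GRB7 are the highest of their lists, and PSMD3, at 1.29, lies below SEM1 at 2.16.

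Adaptors, chaperones and ligases of HER2 were called in both directions, in shares near those of all genes (44.8% higher and 42.4% lower). Of 23 tested, 10 were called higher in SKBR3, 11 lower and 2 not, with a median log2 fold change of -0.040. SRC, a kinase that acts downstream of the receptor, was the largest at 6.15, and PIK3R1, the regulatory subunit of PI3-kinase, the smallest at -4.09. Of 13 transcription factors known at the ERBB2 promoter, 6 were higher and 7 lower in SKBR3, also near the shares of all genes. ETS1 was the largest, at 1.66 CPM in SKBR3 and 0.037 CPM in MB453, and PAX2 the smallest, at 0.041 and 8.88 CPM. The AP-2 factors went different ways, with log2 fold changes of 2.29 for TFAP2C, -0.54 for TFAP2A and -6.01 for TFAP2B.

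With TWEAK, no member was called in either line in the main fit. Some refits, given below, called GRB7, MIEN1 and ORMDL3 lower in SKBR3. In MB453 some called MED1 or CDK12 lower or RPL19 higher. In SKBR3 the log2 fold changes of the 10 members lay between -0.15 for ORMDL3 and 0.13 for RPL19, with a median of -0.031, and in MB453 between -0.13 for MED1 and 0.081 for RPL19, with a median of 0.012. Over all genes, 6.60% were called higher and 3.82% lower in SKBR3, and 1.29% higher and 0.208% lower in MB453, by edgeR's quasi-likelihood test at an adjusted p of at most 0.1. None of the 10 had an unadjusted p under 0.05 in either line, and DESeq2 also called 0 members. With library totals in place of TMM factors, the split over all genes in SKBR3 moved from 1034 higher and 599 lower to 900 higher and 818 lower, with 0 members called.

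ERBB2 was at 7499.7, 7854 and 7542 CPM in SKBR3 with TWEAK, within the range of the untreated replicates. Its log2 fold change was 0.0065 (95% interval -0.12 to 0.14, adjusted p = 0.966 by edgeR). In MB453 it was at 846, 865 and 846 CPM with TWEAK, and all 3 values lay below the 3 untreated ones. The log2 fold change there was -0.062 (95% interval -0.14 to 0.012, adjusted p = 0.55 by edgeR). The groups of replicates did not overlap in MB453 for GRB7 and STARD3 either. GRB7 was at 62.3, 61.0 and 64.4 CPM with TWEAK, below the untreated values, and STARD3 at 131.8, 132.0 and 132.4 CPM, above them, with log2 fold changes of -0.065 and 0.031. In MB453 15.1% of all genes, and in SKBR3 26.5%, had groups that did not overlap. In SKBR3 this was the case for 0 members.

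The other genes of the receptor's neighbourhood gave similarly small values. GRB7 was at 496, 555 and 508 CPM in SKBR3 with TWEAK (log2 fold change -0.10, 95% interval -0.25 to 0.040). MIEN1 was at 260.4, 331 and 267 CPM in SKBR3 (-0.10, -0.31 to 0.10) and at 66.1, 60.6 and 66.4 CPM in MB453 (0.036, -0.071 to 0.14). In SKBR3 the second TWEAK replicate was the highest of the 3 for GRB7 and MIEN1. Without it their log2 fold changes were -0.15 and -0.22, and both were called lower, as given below. PGAP3 was at 193, 235 and 195 CPM in SKBR3 (0.11, -0.070 to 0.29) and at 43.5, 38.0 and 41.2 CPM in MB453 (0.038, -0.081 to 0.16). STARD3 was at 570.2, 645 and 584 CPM in SKBR3 (0.0078, -0.14 to 0.15). Every TWEAK group overlapped the untreated group for these genes, except GRB7 and STARD3 in MB453.

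CDK12 and MED1 varied most between the TWEAK replicates. CDK12 was at 1948, 1412 and 1978 CPM in SKBR3 with TWEAK and at 105, 128 and 119 CPM in MB453. MED1 was at 1098, 819 and 1146 CPM in SKBR3 and at 100.02, 124 and 111 CPM in MB453. The second replicate was the lowest in SKBR3 for both genes and the highest in MB453. Their log2 fold changes with TWEAK were -0.098 and -0.068 in SKBR3 and -0.10 and -0.13 in MB453, the latter with the smallest unadjusted p of the members in MB453 (adjusted p = 0.501 by edgeR).

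RPL19 was at 10889.5, 13233 and 10496 CPM in SKBR3 with TWEAK and at 640.4, 559 and 635 CPM in MB453. Its second TWEAK replicate was the highest in SKBR3 and the lowest in MB453, the reverse of CDK12 and MED1. PSMD3 was at 967, 1078 and 989 CPM in SKBR3 (0.068, -0.069 to 0.20) and at 409, 393 and 403 CPM in MB453 (0.022, -0.052 to 0.097). ORMDL3 was at 221, 254 and 216 CPM in SKBR3, where replicates 1 and 3 lay below all untreated ones, and at 87.4, 86.1 and 85.2 CPM in MB453. It had the smallest unadjusted p of the members in SKBR3 (log2 fold change -0.15, 95% interval -0.31 to 0.0027, adjusted p = 0.262 by edgeR).

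**Figure D4:**
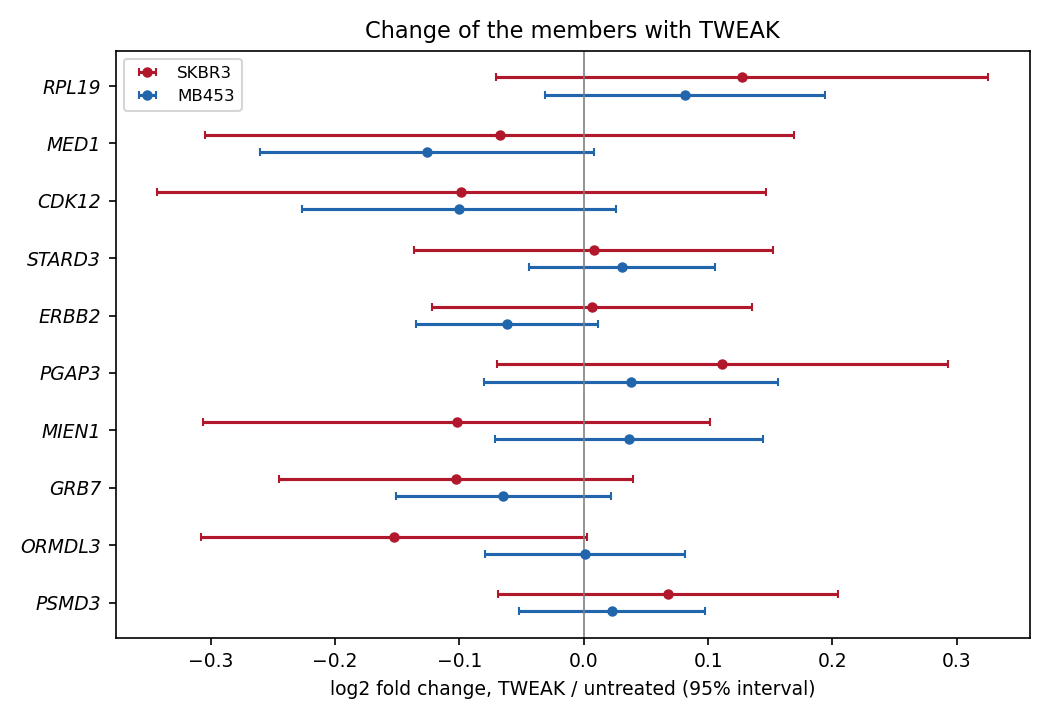
Log2 fold change with TWEAK of each member in SKBR3 (red) and MB453 (blue), with 95% intervals from the edgeR fit. All intervals include 0, and those of SKBR3 are wider than those of MB453.

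The change with TWEAK in SKBR3 minus that in MB453 was tested in a fit over all 12 libraries. None of the 10 members was called, against 2.36% of all genes called higher and 1.01% lower, and none had an unadjusted p under 0.05. DESeq2 called 0 members. Library totals moved the split over all genes from 406 higher and 173 lower to 349 and 295, with 0 members called. Some refits, given below, called MIEN1 or ORMDL3 lower, or CDK12 and MED1 higher. The differences lay between -0.15 for ORMDL3 (95% interval -0.32 to 0.017, adjusted p = 0.537) and 0.078 for PGAP3, and that of ERBB2 was 0.073 (-0.054 to 0.20).

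The counts of 0 and the sizes of the changes moved without the second TWEAK replicates. The range of the 10 log2 fold changes became -0.23 (ORMDL3) to 0.071 (MED1) in SKBR3, and -0.21 (MED1) to 0.14 (RPL19) in MB453. In SKBR3, RPL19 went from 0.13 to 0.018, PGAP3 from 0.11 to 0.015 and PSMD3 from 0.068 to 0.021. ERBB2 was then at -0.013, STARD3 at -0.046 and CDK12 at 0.046, each with the opposite sign to its value with all replicates, as was MED1. In MB453 the members not called were then at -0.075 for ERBB2, -0.049 for GRB7, 0.028 for STARD3, 0.082 for PGAP3, 0.074 for MIEN1, 0.035 for PSMD3 and -0.0016 for ORMDL3. Against the mean of the other 2 replicates, the second TWEAK replicate of SKBR3 had CDK12 lower by 0.48 and MED1 lower by 0.45 on the log2 scale, with the other 8 members higher by between 0.063 and 0.33. In MB453 it had MED1 higher by 0.24 and CDK12 by 0.19, with RPL19 lower by 0.19, while replicate 1 of that group had CDK12 lower by 0.23. CDK12 and MED1 are the members with the lowest GC content (45.9% and 44.8% in their longest transcripts, against 49.1% to 60.3% in the others) and, with ERBB2, the longest, at 12975, 8608 and 10321 exonic bases for CDK12, MED1 and ERBB2. The part of GC content and length in the calls was not tested for single genes, but removing each library's trend with them, an alternative chosen after seeing the data, was one of the refits below.

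Without the second SKBR3 TWEAK replicate, 3 of 10 members were called lower with TWEAK in SKBR3, against 7.45% of all genes. They were GRB7 (log2 fold change -0.15, adjusted p = 0.0263), MIEN1 (-0.22, adjusted p = 0.00203) and ORMDL3 (-0.23, adjusted p = 0.000612), all by edgeR's quasi-likelihood test. The same 3 were called lower with the trend in GC content and length removed and all libraries kept (-0.18, -0.19 and -0.22), against 9.81% of all genes. Without the second MB453 TWEAK replicate, MED1 (-0.21, adjusted p = 0.00201) and CDK12 (-0.17, adjusted p = 0.0175) were called lower and RPL19 (0.14, adjusted p = 0.0156) higher by edgeR, against 7.22% and 6.59% of all genes. ERBB2, STARD3, PGAP3 and PSMD3 were called in none of the refits of either line. Without the second SKBR3 TWEAK replicate, the difference between lines was called lower for MIEN1 (-0.27) and ORMDL3 (-0.24), against 2.87% of all genes. With the trend removed it was called lower for ORMDL3 alone (-0.18), against 2.69%. Without the second TWEAK replicate of either line, it was called lower for MIEN1 (-0.30) and ORMDL3 (-0.24), against 5.50% of all genes, and higher for CDK12 (0.20) and MED1 (0.27), against 6.36%. In all of these calls the size of the change was at most 0.30 on the log2 scale. With the replicate number as a block, MED1 was the 1 member called lower in MB453, against 2.71% of all genes.

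**Figure D5:**
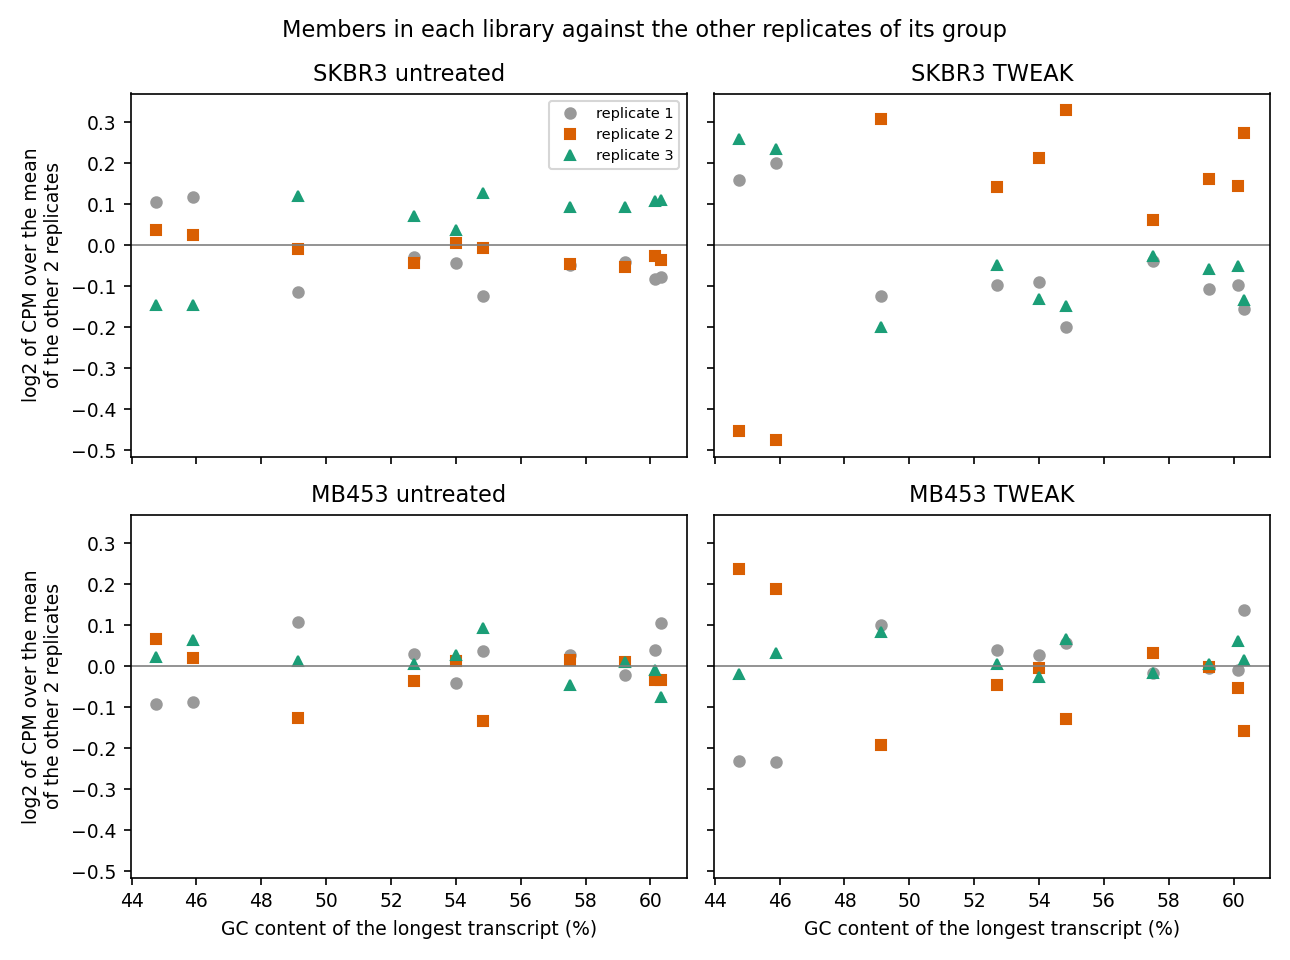
Log2 of each member's CPM in a library over the mean of the other 2 replicates of its group (vertical axis), against the GC content of its longest transcript in percent (horizontal axis), in the 4 groups. Each point is 1 member in 1 replicate. The second TWEAK replicate (orange squares) has CDK12 and MED1 at -0.48 and -0.45 in SKBR3 and at 0.19 and 0.24 in MB453.

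Some other genes of 17q12-q21 were called with TWEAK in SKBR3. Of 57 tested, 7 were called higher and 4 lower, beside 6.60% and 3.82% of all genes. STAT5A (log2 fold change 1.17), DHX58 (1.02), KRT23 (0.66), IKZF3 (0.63) and STAT3 (0.48) rose the most, and STAC2 (-1.01), THRA (-0.55), PPP1R1B (-0.44) and CDC6 (-0.21) fell. Of 28 genes tested within 0.5 Mb of ERBB2, 2 were called higher, IKZF3 and CACNB1 (0.21), and 3 lower, STAC2, PPP1R1B and THRA. In MB453, DHX58, which encodes an RNA sensor, was the 1 gene of 49 called, higher by 0.46 (adjusted p = 0.0993 by edgeR), beside 1.29% of all genes called higher and 0.208% lower. STAT3 was the 1 gene of the list called for the difference between lines.

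The genes the members work with mostly were not called with TWEAK. With all replicates, 0 of the tested genes of the 10 lists were called in MB453, beside 1.29% of all genes called higher and 0.208% lower. Members belong to 8 of these lists. The calls of MED1, CDK12 and RPL19 without the second MB453 TWEAK replicate, and of MED1 with the replicate block, were given above. In SKBR3, MED19 of the Mediator rose by 0.28 and STARD7, a carrier of phosphatidylcholine, by 0.17, and 0 genes of the large ribosomal subunit, the 19S cap, the CDK12 list, the ORMDL3 list, the GPI list and the GRB7 family were called with all replicates, beside 6.60% of all genes called higher and 3.82% lower. Without the second SKBR3 TWEAK replicate, or with the trend in GC content and length removed, the members ORMDL3 and GRB7 were called lower, as given above. Without that replicate, 7.45% of all genes were called lower. The other genes of these lists are given for the main fit with all replicates only. In that fit the 47 genes of the large ribosomal subunit had log2 fold changes between 0.093 and 0.31 in SKBR3 (median 0.17). In MB453 they lay between 0.025 and 0.13 (median 0.088). RPL19, at 0.13 in SKBR3 and 0.081 in MB453, was below the median of its list in each line. Of 22 adaptors, chaperones and ligases of HER2 tested in SKBR3, SRC rose by 0.38 and GAB2, an adaptor of growth factor receptors, fell by 0.62. The other 20 were not called. Of 12 factors known at the ERBB2 promoter that were tested in SKBR3, ETS1 rose by 1.68, TFAP2B fell by 0.74 and ETV4 by 0.38. The other 9 were not called.

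The genes most like ERBB2 over the 3 log2 fold changes (between lines, TWEAK in SKBR3 and TWEAK in MB453) were found by Euclidean distance among 13459 genes. They were ECH1 (0.056), GSEC (0.066), APBB1 (0.069), POMZP3 (0.076) and LINC00294 (0.085), none of them on chromosome 17. MED1 was the nearest member, at rank 8, and GRB7 was at rank 10.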

How the data were processed

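RNA was purified with TRIzol and libraries were made from poly-A RNA. Per the study's methods, the authors trimmed reads with Trimmomatic, aligned them with STAR (hg38) and assigned them to genes with featureCounts. They deposited raw counts per gene in 1 table per line, without normalisation. The tool versions, strand setting, treatment of multi-mapping reads and annotation release are not given in the sources used here. Identifiers were matched without version to GENCODE 44 (62625 of 62696).

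Counts were analysed in R 4.3.3 with edgeR 4.0.16 (filterByExpr, TMM, quasi-likelihood test, two-sided, Benjamini-Hochberg over all genes tested, adjusted p of at most 0.1). Untreated lines were compared on 6 libraries, TWEAK within each line on its 6, and the difference between lines on all 12. Levels are CPM with TMM factors, and RPKM divides by the union of exons. The study describes the replicates as biological and its cell line experiments as repeated on separate days. The labels do not say whether a replicate number marks a day. The scripts were tested on simulated data with 200 changed genes. DESeq2 1.42.0, other scalings and filters, a replicate block, an adjusted p of 0.05, all 12 libraries in 1 fit, each library left out, and an offset for GC content and length (splines with 4 degrees of freedom, chosen after seeing the data) were alternatives.

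All 10 members were named throughout. Of the other 17q12-q21 genes, those named were the called genes with a mean of at least 1 CPM and the 5 highest or 5 lowest log2 fold changes, of each partner list the largest and smallest value and the closest relatives of a member, and the 5 genes nearest ERBB2. Further genes named at the edges of runs or as the few called of a list were chosen after their values were seen. The members and lists were chosen with earlier results of these data known.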

Additional observations from a re-analysis of the deposited data

Results flagged for a closer look

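Of 286 genes of all lists, 250 were tested for a difference between the lines in their change with TWEAK by the interaction test of edgeR. It called 3 higher (1.2%) and 2 lower (0.8%), beside 2.36% and 1.01% of all genes, and no member. The change in SKBR3 minus that in MB453 was 0.47 for STAT3, at the far end of the second run of genes higher in SKBR3 (0.48 in SKBR3 and 0.011 in MB453, adjusted p = 0.000259). It was 0.35 for KRT19 (adjusted p = 0.0939), an epithelial marker that lies in the same run, 1.84 Mb after ERBB2, and 0.37 for CLDN4 (adjusted p = 0.0290), another epithelial marker. It was -1.30 for RELB, an NF-κB subunit that rose in both lines (adjusted p = 0.00158), and -0.67 for TFAP2B, an AP-2 factor (adjusted p = 0.000909).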

How the results depend on the processing

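All 10 members stayed called higher in untreated SKBR3 under each of the 15 alternatives, including the replicate block and DESeq2, and none was called lower. Library totals in place of TMM factors moved the median of all genes by -0.11 on the log2 scale in that comparison and the members with it (ERBB2 2.98). For TWEAK in SKBR3, 3 members were called lower with the GC content and length offset, and between 0 and 3 when a library was left out. For TWEAK in MB453, 1 was called lower under the replicate block (MED1, -0.13, adjusted p = 0.0658 by edgeR, against 2.71% of all genes), and leaving out a library gave 0 to 1 called higher and 0 to 2 lower. For the difference between lines, the offset gave 1 lower, leaving out a library 0 to 2 lower, and leaving out both second TWEAK replicates 2 higher and 2 lower. The cause was not tested. The numbers were not shown to pair the samples, since the correlations of same-numbered samples lay between -0.11 and 0.081 over the 3 comparisons.

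Several small changes with TWEAK turned direction, none of them called in the main fit. With library totals, ERBB2 in SKBR3 became -0.028, STARD3 in SKBR3 -0.028 and the line difference of CDK12 -0.032. With no filter, ERBB2 in SKBR3 became -0.00074 and the line difference of CDK12 -0.0088. With DESeq2 size factors and with DESeq2, ORMDL3 in MB453 became -0.0022. With the replicate block the line difference of CDK12 became -0.0024. With the offset, ERBB2 and STARD3 in SKBR3 became -0.046 and -0.059, MIEN1 and ORMDL3 in MB453 -0.00015 and -0.017, and the line difference of CDK12 -0.0095. Without both second TWEAK replicates the line differences of PGAP3, RPL19 and PSMD3 became -0.078, -0.13 and -0.025.

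Leaving out each library in turn gave ranges in SKBR3 of -0.013 to 0.044 for ERBB2, -0.046 to 0.046 for STARD3, -0.18 to 0.046 for CDK12 and -0.16 to 0.071 for MED1, where CDK12 and MED1 turned positive without the second TWEAK replicate. In MB453 the ranges were -0.0050 to 0.082 for PGAP3, -0.0072 to 0.074 for MIEN1 and -0.011 to 0.012 for ORMDL3. For the difference between lines they were -0.098 to 0.0010 for GRB7, -0.089 to 0.019 for STARD3, -0.035 to 0.13 for PGAP3, -0.072 to 0.13 for CDK12, -0.023 to 0.19 for MED1, -0.075 to 0.12 for RPL19 and -0.014 to 0.083 for PSMD3. Of 40 levels, 16 moved by more than 1 SD with library totals. Every member had at least 1019 counts in every library.

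Counts over all genes moved by over 1.5 times under some settings. In SKBR3 the 599 lower became 1068 with all 12 libraries in 1 fit, 387 with the replicate block, 363 at an adjusted p of 0.05, 1537 with the offset, and 240 to 1191 with a library left out, where the 1034 higher became 686 to 1589. In MB453 the 192 higher and 31 lower became 302 and 178 with no filter, 490 and 404 with the block, and 120 to 1003 and 10 to 1098 with a library left out, and the 31 lower became 13 with all 12 libraries in 1 fit, 17 at 0.05 and 109 with the offset. For the difference between lines the 173 lower became 295 with library totals, 101 with the block, 95 at 0.05, 462 with the offset and 90 to 505 with a library left out, where the 406 higher became 304 to 645, and both counts became 1113 higher and 964 lower without both second TWEAK replicates.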
